A study of Mus musculus with 5 samples.

Results

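The lung without PDE4B was set directly against the lung without PDE4D. Both are mouse knockouts of enzymes that degrade cyclic AMP, and the comparison used 2 of the 5 arrays of the study. The array named 4B(-/-) measured lungs lacking PDE4B and the array named 4D(-/-) measured lungs lacking PDE4D. The other 3 arrays, 4B(+/+), 4D(+/+) and C57, measured lungs without either deletion and served as a yardstick. All 5 groups were naive female mice, never given elastase, kept free of specific pathogens. C57 is the inbred strain C57BL/6J. The other 4 groups came from a mixed C57BL/6 and 129/Ola background that had been backcrossed to C57BL/6J for 11 or more generations, and both knockouts are constitutive, not limited to one cell type. The sources used here give no ages. Each array measured a single mixture of RNA from 3 of 5 lungs, so every difference below is between one pool and another. It has no replicate check, no test and no error, and its precision is limited by the number of arrays.

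PDE4B and PDE4D belong to one subfamily of phosphodiesterases that hydrolyse cyclic AMP, the messenger made by adenylyl cyclases when receptors coupled to the stimulatory G protein are engaged. Cyclic AMP acts through protein kinase A and the exchange factor EPAC, and kinase A phosphorylates CREB, which binds the cAMP response element of its target genes. In lung, PDE4B is known mainly from leukocytes and their cytokine release, and PDE4D from airway smooth muscle and its relaxation. Inhibitors of the whole PDE4 subfamily are used in chronic obstructive lung disease, and the series title places these mice in a model of emphysema. The direct comparison asks how the lungs differ according to which of the 2 enzymes is missing.

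Of 18194 genes with a probe set of their own, 11293 reached an intensity of 64 in the brighter of the 2 knockout arrays and were compared. An intensity under 64 lies near the background of the array, and a fold against such a value is poorly determined. At least 2-fold higher in 4B(-/-) were 44 genes, or 0.390% of those compared, and 54 genes, or 0.478%, were at least 2-fold lower. These 98 genes make up 0.868% of those compared. At 1.5-fold, the threshold used for members of gene lists, 338 genes (2.99%) were higher and 311 (2.75%) lower, together 5.75%. The median log2 difference over all genes was 0.03 with an SD over genes of 0.33, and 570 genes had exactly the same value in both knockout arrays. Of the 44 higher genes, 23 lay under an intensity of 64 in 4D(-/-), and of the 54 lower genes 11 lay under it in 4B(-/-).

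**Figure D1:**
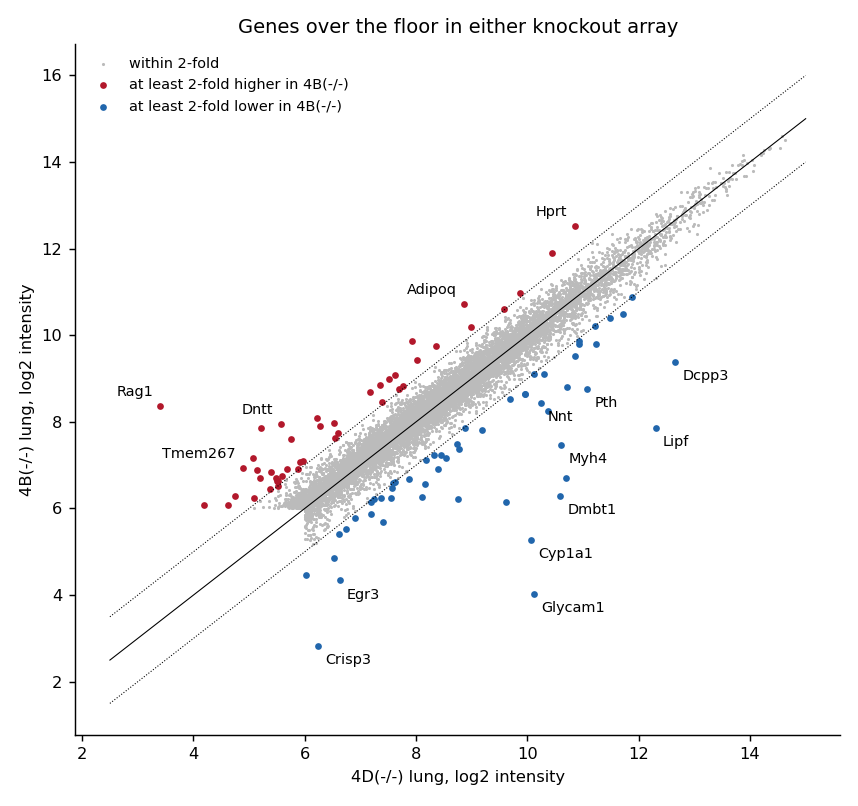
Each point is a gene over the floor in either knockout array, with its log2 intensity in 4B(-/-) up the page and in 4D(-/-) across it. The solid line marks equal values and the dotted lines 2-fold. The 44 genes higher in 4B(-/-) are red and the 54 lower ones blue, and the farthest from the line are Rag1 above it and Glycam1, Cyp1a1 and Lipf below it.

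The largest differences in the higher direction belonged to thymocyte genes, fat genes and chemokines. Rag1, the recombinase of developing lymphocytes, read 331 in 4B(-/-) and 10.6 in 4D(-/-), a 31.2-fold difference. The thymic chemokine Ccl25 was 6.24-fold higher, the terminal transferase Dntt 5.19-fold and the thymic serine protease Prss16 4.22-fold. In the lower direction stood Glycam1 (68.2-fold), Cyp1a1 (27.9-fold) and the secretory genes Lipf (21.6-fold), Dmbt1 (19.7-fold) and Wfdc18 (16.0-fold). The gene lists used below were 22 of pathways, 7 of lung cells, 7 of immune cells and 7 of other tissues. Of the genes past 2-fold, 0 of either direction were in a list of lung cells, and 7 higher and 1 lower were in a list of immune cells. Lists of other tissues held 8 higher and 16 lower. Over all genes compared the shares were 0.390% higher and 0.478% lower. At such shares the 0 for lung cells is no result about those cells. Of 624 listed symbols 568 were measured and 476 were over the floor in either knockout. A gene over the floor in one knockout alone tends to differ for that reason, so counts over a list are descriptions. The pathway lists held 5 higher and 9 lower genes, and 26 higher and 28 lower genes were in no list.

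**Figure D2:**
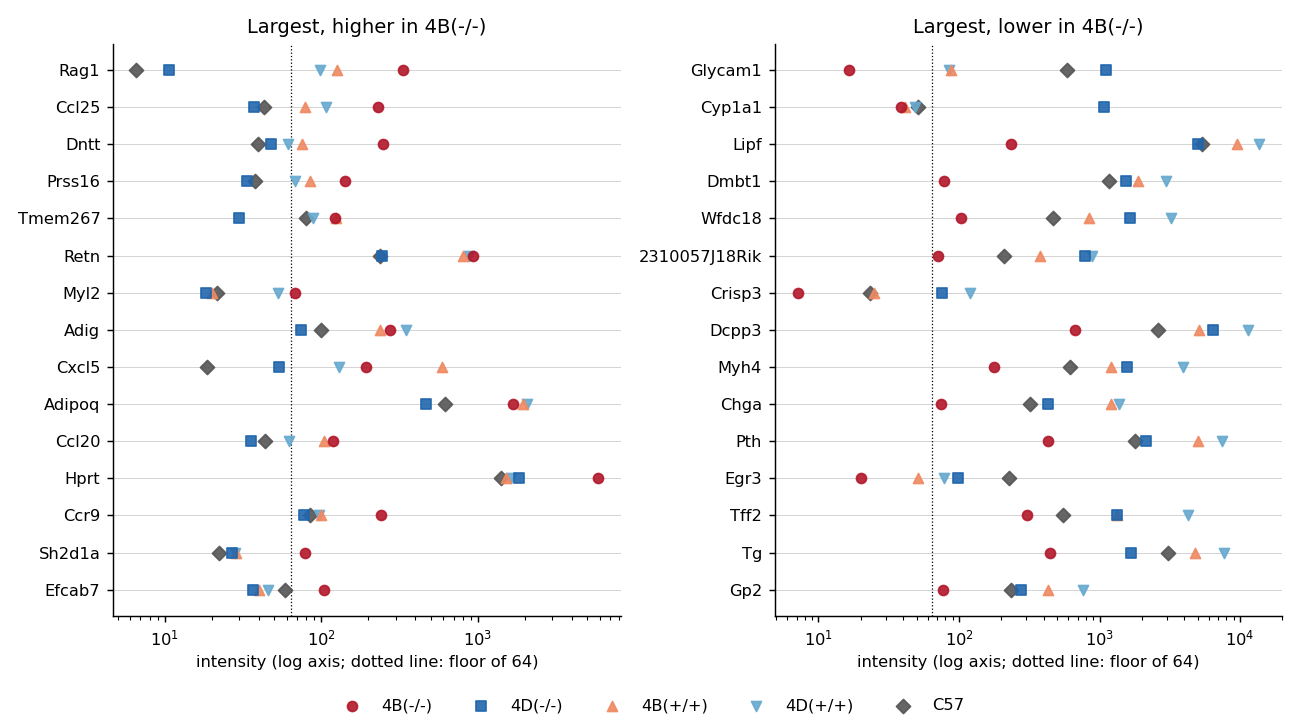
Intensity on a log axis of the 15 genes with the largest difference in each direction, in all 5 arrays. Red circles are 4B(-/-) and blue squares 4D(-/-), and the dotted line marks the floor of 64. For Rag1, Dntt and Hprt the circle stands alone to the right, for Lipf and Dmbt1 it stands alone to the left, and for Cyp1a1 the square at 1074 stands alone.

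The 3 arrays without a deletion were used to see whether either knockout array stood apart. Among the 98 genes past 2-fold, 4B(-/-) was at least 1.5-fold beyond all of the other 4 arrays for 38 genes, 14 of them higher and 24 lower. 4D(-/-) stood apart in that way for 12 genes, 4 higher and 8 lower. Both stood apart, on opposite sides, for Glycam1 alone. For the other 47 genes neither did, and a wild-type array lay at or near one of the knockout values. C57 lay nearer to 4D(-/-) for 76 genes and nearer to 4B(-/-) for 22. The difference between the knockouts was wider than the whole range of the 3 wild-type arrays for 70 of the 98 genes.

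Arrays without a deletion differed from each other as often. At least 2-fold apart were 1.0% of genes between 4B(+/+) and 4D(+/+), 1.06% between 4B(+/+) and C57 and 2.02% between 4D(+/+) and C57. The share of 0.868% between the knockouts was below each of these. Across the genes compared, which are not independent replicates, the log2 values of 4B(-/-) and 4D(-/-) correlated with a Pearson r of 0.979. With 4B(-/-), 4B(+/+) correlated at 0.991, 4D(+/+) at 0.983 and C57 at 0.979. With 4D(-/-), C57 correlated at 0.990, 4B(+/+) at 0.988 and 4D(+/+) at 0.981. The 3' to 5' signal ratio of the actin control, a sign of RNA length, was 1.79 in 4B(-/-) and 1.86 in 4D(-/-), and that of Gapdh was 1.57 in 4B(-/-) and 1.77 in 4D(-/-).

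The deleted genes themselves were still detected in their own knockouts. The brightest Pde4b probe set read 457 in 4B(-/-) and 466 in 4D(-/-), and 438 to 558 in the wild-type arrays. A second read 397 in 4B(-/-) and 473 in 4D(-/-), and the last one over the floor 164 in 4B(-/-) and 229 in 4D(-/-). All 3 were thus lower in 4B(-/-), by 0.03 to 0.48 on the log2 scale. Pde4d read 467 in 4B(-/-) and 386 in 4D(-/-), 1.21-fold higher in 4B(-/-), and 456 to 523 in the wild-type arrays. With the median of all its probe sets, one of them under the floor, the log2 difference of Pde4d turned to -0.37. The sources used here do not say where the deletions lie relative to these probes, so the readings check nothing. Pde4a was under the floor in both knockouts, at 37.0 in 4B(-/-) and 32.7 in 4D(-/-), and Pde4c was not analysed here.

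Few genes in the rest of the cyclic AMP pathway passed 1.5-fold between the knockouts. Over all genes compared only 5.75% did so, so lists this short would hold few in any case. Of 10 other phosphodiesterases over the floor, 0 passed 1.5-fold in either direction, and the largest difference was in Pde12 (-0.40 on the log2 scale). The cyclic GMP phosphodiesterase Pde5a read 2091 in 4B(-/-) and 2740.4 in 4D(-/-). Of 10 cAMP production genes, 0 passed 1.5-fold, from the adenylyl cyclase Adcy7 at -0.44 to Adcy2 at 0.20. The G-protein subunit Gnas read 5479 in 4B(-/-) and 5147 in 4D(-/-). Among 13 cAMP sensing genes 0 passed 1.5-fold and 10 were below 0, with a median log2 difference of -0.16. Prkaca, a catalytic subunit of protein kinase A, was the lowest of these, at 1308 in 4B(-/-) and 1749 in 4D(-/-), and 1630.2 to 1908 in the wild-type arrays. Of 5 receptors coupled to the stimulatory G protein, Calcrl, the receptor of adrenomedullin and CGRP, was 1.64-fold lower, at 5157 in 4B(-/-) and 8468 in 4D(-/-). Its 3 wild-type values ran from 6422 to 8821, and the median of its probe sets gave a log2 difference of 0.02 instead.

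Immediate early genes, many of them transcription factors, are switched on quickly by many signals including cyclic AMP. They leaned lower in 4B(-/-). Of 20 over the floor, 8 were at least 1.5-fold lower and 0 higher, against 2.75% of all genes lower by 1.5-fold. The lists were chosen with earlier results of these data known, so this count is a description. The list had a median of -0.43 on the log2 scale. Egr3 read 20.2 in 4B(-/-) and 99.0 in 4D(-/-), 4.90-fold lower, and 50.7 to 227 in the wild-type arrays. Its 4B(-/-) value was under the floor, so the fold is poorly determined. The orphan nuclear receptor Nr4a1 read 226 in 4B(-/-) and 581 in 4D(-/-), 2.57-fold lower. In the wild-type arrays it read 414 in 4B(+/+), 726 in 4D(+/+) and 1548 in C57. So 4B(-/-) held the lowest Nr4a1 value of the 5 arrays, and 4D(-/-) lay inside the wild-type range.

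The zinc-finger factor Egr2 read 46.2 in 4B(-/-), under the floor, 107 in 4D(-/-) and 77.8 to 121 in the wild-type arrays. Nr4a2 read 232 in 4B(-/-), 469.8 in 4D(-/-) and 288 to 455 in the wild-type arrays. Both were lowest in 4B(-/-) on these probe sets. The other Egr2 probe set over the floor differed by -0.52 on the log2 scale, inside 1.5-fold, and the 4 of Nr4a2 ran from -1.07 to -0.22. The other 4 genes of the 8, named after their values were seen, were Nr4a3, the AP-1 member Fosl2, the Krüppel-like factor Klf4 and Egr1. Nr4a3 took the other form: it read 431 in 4B(-/-), inside the wild-type range of 383 to 473, and 815 in 4D(-/-), above it. Over the whole list, the median difference from the mean of the wild-type arrays was -0.51 in 4B(-/-) and -0.04 in 4D(-/-). The same measure was -0.12 in 4B(+/+), -0.13 in 4D(+/+) and 0.26 in C57, so wild-type arrays also differed from one another.

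The promoters of the 3 Nr4a genes are printed here because all 3 were at least 1.5-fold lower in 4B(-/-) than in 4D(-/-). They did not share one form, since Nr4a1 lay below the wild-type range in 4B(-/-) and Nr4a3 above it in 4D(-/-). That of Cyp1a1 is printed because it had the largest difference set by 4D(-/-) alone. The printed promoters run from 250 bases before to 50 after the start of the transcript, from RefSeq on build GRCm38.p6, 5' to 3' along the gene. Capitals mark TGACG or its reverse complement CGTCA, the core of the cAMP response element, in the Nr4a genes, and GCGTG or its reverse complement CACGC, the core of the aryl hydrocarbon receptor's response element, in Cyp1a1. Both strands were searched for each.
Nr4a1, chr15:101266596-101266895, plus strand: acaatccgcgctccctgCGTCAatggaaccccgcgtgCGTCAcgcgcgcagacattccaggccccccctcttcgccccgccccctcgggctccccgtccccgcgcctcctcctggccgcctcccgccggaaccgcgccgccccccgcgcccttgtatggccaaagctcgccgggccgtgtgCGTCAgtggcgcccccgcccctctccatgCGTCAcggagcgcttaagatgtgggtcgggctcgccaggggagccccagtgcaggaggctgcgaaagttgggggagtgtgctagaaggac
Nr4a2, chr2:57123954-57124253, minus strand: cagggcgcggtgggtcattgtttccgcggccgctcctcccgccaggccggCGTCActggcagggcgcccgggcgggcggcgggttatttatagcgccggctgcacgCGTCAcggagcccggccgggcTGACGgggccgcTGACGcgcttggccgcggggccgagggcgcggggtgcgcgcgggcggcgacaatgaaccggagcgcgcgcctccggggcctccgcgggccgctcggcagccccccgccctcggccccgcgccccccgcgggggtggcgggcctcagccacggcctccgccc
Nr4a3, chr4:48045055-48045354, plus strand: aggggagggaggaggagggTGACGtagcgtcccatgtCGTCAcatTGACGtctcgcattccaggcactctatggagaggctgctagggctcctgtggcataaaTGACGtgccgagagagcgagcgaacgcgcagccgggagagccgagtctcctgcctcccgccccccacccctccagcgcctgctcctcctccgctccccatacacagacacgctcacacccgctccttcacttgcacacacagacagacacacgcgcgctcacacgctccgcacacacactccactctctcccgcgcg
Cyp1a1, chr9:57697363-57697662, plus strand: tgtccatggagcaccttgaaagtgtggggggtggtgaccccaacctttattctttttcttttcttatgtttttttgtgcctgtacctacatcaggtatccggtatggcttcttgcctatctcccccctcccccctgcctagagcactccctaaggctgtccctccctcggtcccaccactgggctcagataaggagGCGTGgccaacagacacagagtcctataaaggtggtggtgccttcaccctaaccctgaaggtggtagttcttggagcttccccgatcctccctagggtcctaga

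Each of the 3 Nr4a promoters held 4 matches to the cAMP core, and the Cyp1a1 promoter held 1 match to the receptor core. Of 32851 mouse promoters of this length, 20.8% held the cAMP core and 32.4% the receptor core. Among the 9122 compared genes with a promoter in the table the shares were 35.2% and 55.8%. Among immediate early genes with such a promoter, 12 of 17 held the cAMP core, as did 5 of the 6 that were at least 1.5-fold lower. The full palindrome TGACGTCA was in 1.79% of promoters. These counts describe letters in a window and not binding.

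Cyp1a1, a drug-metabolising enzyme that ligands of the aryl hydrocarbon receptor induce, was set apart by the PDE4D knockout. It read 38.5 in 4B(-/-) and 1074 in 4D(-/-), against 41.4 in 4B(+/+), 48.3 in 4D(+/+) and 51.4 in C57. Only the 4D(-/-) array was over the floor for it. The other 7 genes of the receptor's battery over the floor stayed within 1.5-fold, and the list's median was -0.19. Nqo1, a quinone reductase of the battery, read 62.6 in 4B(-/-) and 82.4 in 4D(-/-). The receptor Ahr read 1145 in 4B(-/-) and 1301 in 4D(-/-), and the partner gene Cyp1b1 138 in 4B(-/-) and 149 in 4D(-/-). Cyp1a2 was under the floor at the same value in both knockouts.

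Thymocyte genes had the highest median difference of the 43 lists, 1.59 on the log2 scale. Of 8 over the floor 5 were at least 1.5-fold higher and 0 lower, against 2.99% of all genes higher by 1.5-fold. Rag1, Ccl25, Dntt and Sh2d1a of these 5 reached the floor through 4B(-/-) and not 4D(-/-). The floor thus favoured their being higher, so the count is a description. Ccr9 was over the floor in both knockouts. Rag1 read 331 in 4B(-/-) and 10.6 in 4D(-/-), then 126 in 4B(+/+), 98.1 in 4D(+/+) and 6.57 in C57. The 4B(-/-) value was the highest, and the 4D(-/-) value lay with C57 far below both lines without a deletion. Dntt, which adds untemplated bases at antigen receptor joints, read 247 in 4B(-/-), 47.5 in 4D(-/-) and 39.4 to 75.7 in the wild-type arrays. Ccl25, which draws thymocyte precursors, read 231 in 4B(-/-), 37.1 in 4D(-/-) and 43.0 to 108 in the wild-type arrays. Its receptor Ccr9 read 240.4 in 4B(-/-), 77.3 in 4D(-/-) and 84.3 to 99.6 in the wild-type arrays. For these 3 genes 4B(-/-) alone stood apart.

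Sh2d1a, the adaptor SAP of T and natural killer cells, was 2.92-fold higher, at 78.7 in 4B(-/-) and 26.9 in 4D(-/-). The wild-type arrays held 22.1 to 28.4 for it. Prss16 of the thymic cortex, which is not in the thymocyte list, read 143 in 4B(-/-), 33.8 in 4D(-/-) and 37.5 to 84.7 in the wild-type arrays. The other 3 genes of that list over the floor, Cd1d1, Satb1 and Themis, were higher by 0.58, 0.56 and 0.45 on the log2 scale, inside 1.5-fold. Rag2, Ptcra, Arpp21 and Tox were under the floor in both knockouts. Rag1, Ccl25, Dntt, Sh2d1a and Themis were under it in 4D(-/-) and not in 4B(-/-), as was Prss16. C57 was also under it for Rag1, Ccl25, Dntt, Prss16 and Sh2d1a. Summed over the whole list, the intensity was 2007 in 4B(-/-) and 795 in 4D(-/-), and 836 to 1133 in the wild-type arrays.

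Genes of the T cell list went the same way, with 5 of 7 at least 1.5-fold higher, against 2.99% of all genes. In this list 0 were lower and the median was 0.70. The co-receptor chain Cd8a read 121 in 4B(-/-), 59.2 in 4D(-/-) and 51.0 to 59.2 in the wild-type arrays. Its partner Cd8b1 was 1.91-fold higher. The CD3 chains Cd3d and Cd3g were 2.08-fold and 1.63-fold higher, and Cd3d read 453 in 4B(-/-) against 217 in 4D(-/-). Cd4, at 62.5 in 4B(-/-) and 67.8 in 4D(-/-), and Cd3e, at 121 in 4B(-/-) and 124 in 4D(-/-), did not share the difference. In whole tissue, more cells of a type and more RNA per cell cannot be told apart. Whether thymus tissue lay in the 4B(-/-) pool was not tested.

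B and plasma cell genes were lower by 1.5-fold in 4B(-/-) in 5 of 10 cases, against 2.75% of all genes, with 0 higher. The list's median was -0.58. The IgM heavy chain Ighm read 3168 in 4B(-/-) and 5673 in 4D(-/-), and 2414 to 4187 in the wild-type arrays. Ighg3 read 87.0 in 4B(-/-) and 151 in 4D(-/-), although the median of its probe sets differed by 0.05 the other way. Jchain, which links IgM and IgA subunits, was 1.59-fold lower, the IgE receptor Fcer2a 1.56-fold and the B-cell inhibitory receptor Cd22 1.53-fold. For Ighm and Ighg3 the 4D(-/-) array held the highest of the 5 values. The summed intensity of the list was 13020 in 4B(-/-) and 17916 in 4D(-/-), and 10191 to 14868 in the wild-type arrays, so 4D(-/-) lay above that range and 4B(-/-) inside it. Of 9 MHC class II genes, 1 was lower, the peptide-loading subunit H2-Ob at 89.4 in 4B(-/-) and 189.8 in 4D(-/-), and the median was -0.22.

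Glycam1, a mucin-like ligand of L-selectin on the venules through which lymphocytes enter lymph nodes, had the largest difference of all. It read 16.4 in 4B(-/-) and 1116 in 4D(-/-), against 87.2 in 4B(+/+), 85.2 in 4D(+/+) and 588 in C57. The 4B(-/-) array was the lowest, under the floor, and the 4D(-/-) array the highest. The wild-type arrays themselves spanned a wide range, with C57 near the 4D(-/-) end.

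Chemokines and their receptors split evenly, with 4 of 23 higher and 4 lower by 1.5-fold, against 2.99% and 2.75% of all genes. The list's median was 0.00. Beside Ccl25 and Ccr9, the CCR6 ligand Ccl20 was 3.34-fold higher, at 118 in 4B(-/-) and 35.3 in 4D(-/-), and 43.6 to 103 in the wild-type arrays. Cxcl5, a neutrophil attractant of lung epithelium, read 194 in 4B(-/-) and 53.8 in 4D(-/-). The wild-type arrays spanned more than this, with 593 in 4B(+/+), 130.3 in 4D(+/+) and 18.7 in C57. The lower genes were the monocyte receptor Ccr2 (1.69-fold), Ccl5 (1.63-fold), the lymph node homing receptor Ccr7 (1.54-fold) and the B-cell attractant Cxcl13 (1.51-fold). Of these, Ccr2, Ccr7 and Cxcl13 were named after their values were seen.

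Alveolar macrophage genes leaned lower in 4B(-/-), 4 of 13 past 1.5-fold against 1 higher, with a median of -0.41. Over all genes 2.75% were lower and 2.99% higher by 1.5-fold. The chitinase-like Chil4 read 22.1 in 4B(-/-) and 65.2 in 4D(-/-), and 22.7 to 27.5 in the wild-type arrays. The scavenger receptor Marco read 146 in 4B(-/-), 254 in 4D(-/-) and 95.5 to 146 in the wild-type arrays. For both, 4D(-/-) stood above all other arrays and 4B(-/-) lay within the wild-type range or at its edge. Only the 4D(-/-) array was over the floor for Chil4, and by little. Siglecf, a sialic acid receptor of these macrophages, read 95.3 in 4B(-/-) and 172 in 4D(-/-), and the fatty acid carrier Fabp1 was 1.68-fold lower. The lipid droplet gene Cidec, which fat also expresses, was 1.74-fold higher.

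Of 6 neutrophil genes over the floor 2 were higher, the calprotectin chains S100a8 (1.78-fold) and S100a9 (1.69-fold), and the median was 0.19. S100a8 read 2161 in 4B(-/-), 1213 in 4D(-/-) and 1343 to 2508 in the wild-type arrays, which held both knockout values or came close. Among 8 NK and cytotoxic genes Ccl5 alone passed 1.5-fold, lower, and the median was -0.08. The granzyme Gzma read 1242 in 4B(-/-) and 1154 in 4D(-/-). Of 4 erythroid genes over the floor Hbb-b2, a beta globin, was 1.58-fold lower and the median was -0.35. Of 14 interferon-stimulated genes Ifi27l2a was higher, at 3794 in 4B(-/-), 1393 in 4D(-/-) and 1813 to 3525 in the wild-type arrays, and the median of the list was 0.19.

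**Figure D3:**
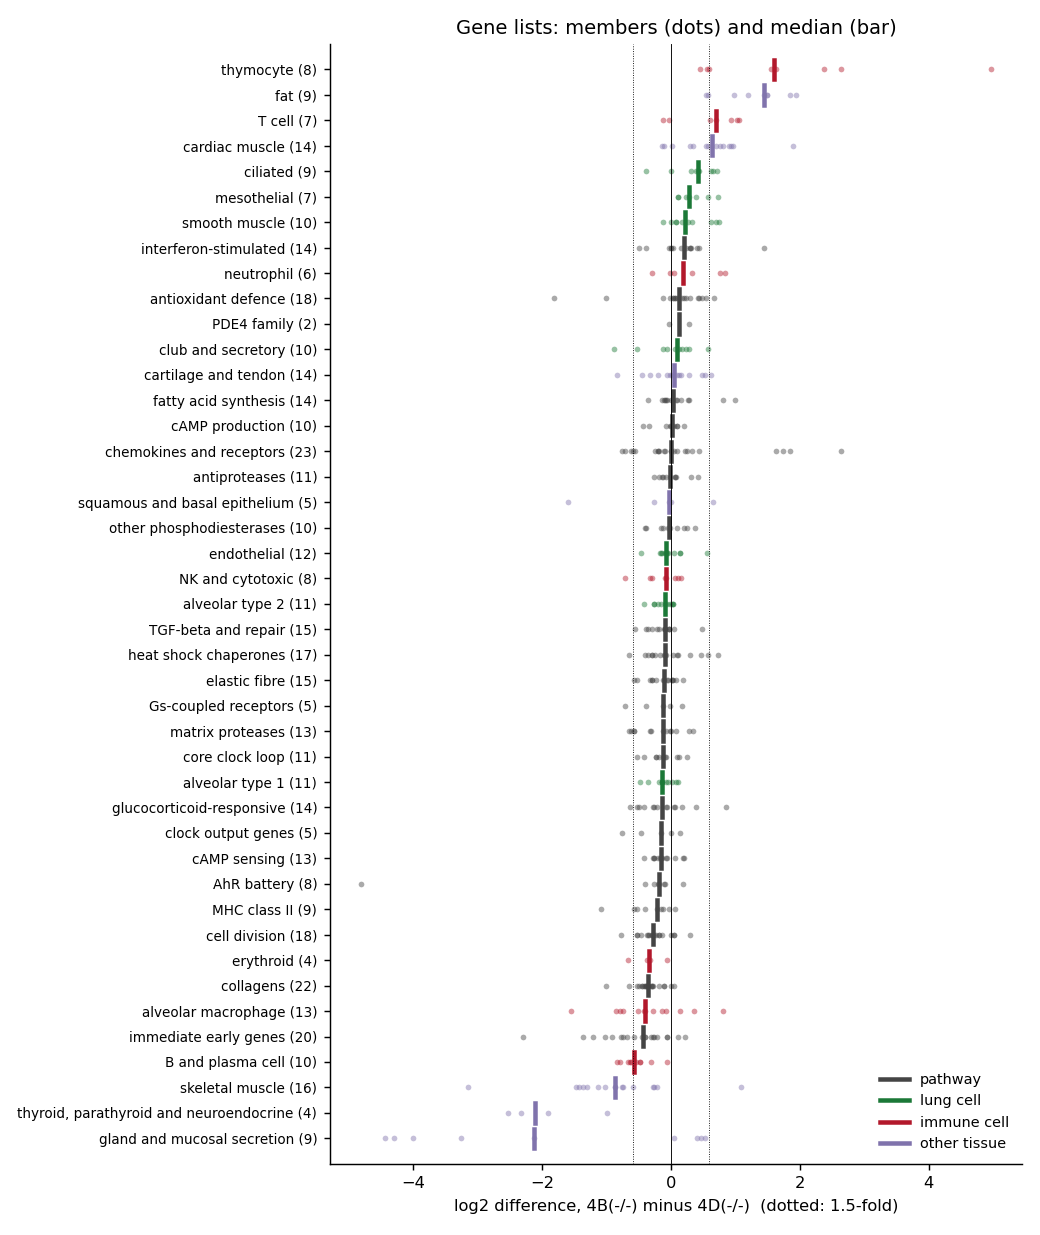
Log2 difference, 4B(-/-) minus 4D(-/-), of each gene over the floor (dots) in the 43 lists, with the list's median (bar) and the number of genes in brackets. Dotted lines mark 1.5-fold. The thymocyte list (median 1.59) and the fat list (1.44) stand at the top, and the gland list and the thyroid, parathyroid and neuroendocrine list (both -2.12) at the bottom.

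Genes of alveolar, endothelial and club cells seldom passed 1.5-fold. Over all genes compared only 5.75% did so, so lists this short would hold few in any case. Of 11 genes of alveolar type 2 cells, which make surfactant, and 11 of the flat alveolar type 1 cells, 0 passed 1.5-fold, with medians of -0.09 and -0.13. The surfactant protein Sftpc read 24791 in 4B(-/-) and 24527 in 4D(-/-), and the type 1 marker Ager 19786 in 4B(-/-) and 19620.2 in 4D(-/-). Among 12 endothelial genes 0 passed 1.5-fold and the median was -0.07. Of 10 club and secretory genes the mucin Muc5b was 1.85-fold lower, at 511 in 4B(-/-) and 946 in 4D(-/-), and the median was 0.10. The defining markers of lung were thus bright in both arrays.

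Ciliated and smooth muscle genes leaned higher in 4B(-/-). Over all genes 2.99% were higher by 1.5-fold. Of 9 ciliated genes 3 were higher, the microtubule proteins Tekt4 (1.64-fold) and Tekt1 (1.57-fold) and the dynein light chain Dynlrb2 (1.53-fold), with a median of 0.42. Foxj1, the master factor of motile cilia, read 368 in 4B(-/-) and 298 in 4D(-/-). Of 10 smooth muscle genes 3 were higher, the actin-binding Tagln (1.68-fold) and Cnn1 (1.61-fold) and the enteric actin Actg2 (1.53-fold), with a median of 0.21. Tagln read 3872 in 4B(-/-), 2301 in 4D(-/-) and 2963 to 3323 in the wild-type arrays, so the knockouts lay on either side of that range. The smooth muscle actin Acta2, at 7614 in 4B(-/-) and 7228 in 4D(-/-), and the myosin Myh11, at 856 in 4B(-/-) and 762 in 4D(-/-), did not pass. Of 7 mesothelial genes Msln, the mesothelin of the pleura, was 1.66-fold higher and the median was 0.27.

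Collagens were lower in 4B(-/-) as a group, by amounts mostly under 1.5-fold. Of 22 genes 2 passed, 0 were higher, 20 lay below 0 and the median was -0.36. Col1a1, a chain of fibrillar collagen I, read 552 in 4B(-/-) and 1111 in 4D(-/-), and 491 to 586 in the wild-type arrays, and its other probe set differed by -0.30 on the log2 scale. The basement membrane chain Col4a5 read 779 in 4B(-/-), 1228 in 4D(-/-) and 823 to 1201 in the wild-type arrays. Col3a1 read 6004 in 4B(-/-) and 8627 in 4D(-/-), inside 1.5-fold. Measured from the wild-type mean, the list had a median of 0.03 in 4B(-/-) and 0.37 in 4D(-/-), and -0.04 to 0.05 in the wild-type arrays. The difference thus lay in the 4D(-/-) array.

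Other matrix genes differed less. Of 15 elastic fibre genes 0 passed 1.5-fold and the median was -0.11, and elastin itself (Eln) read 616 in 4B(-/-), 754 in 4D(-/-) and 393 to 439 in the wild-type arrays, below both knockouts. Of 13 matrix proteases 2 were lower, the gelatinase Mmp2 at 788 in 4B(-/-) and 1218 in 4D(-/-) and the aggrecanase Adamts1 at 699 in 4B(-/-) and 1097 in 4D(-/-), with a median of -0.12. The macrophage elastase Mmp12, central to elastin loss in emphysema models, read 45.4 in 4B(-/-) and 67.3 in 4D(-/-), and 42.8 to 138 in the wild-type arrays. Of 11 antiproteases 0 passed (median -0.01), and of 15 genes of TGF-beta signalling and repair 0 passed (median -0.10).

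Cell division genes had a median of -0.27, with Mki67, the proliferation antigen, at 185 in 4B(-/-) and 318 in 4D(-/-) as the only one of 18 past 1.5-fold. The wild-type arrays held 158 to 192, below 4D(-/-) and around 4B(-/-). Against the wild-type mean the list stood at 0.18 in 4B(-/-) and 0.51 in 4D(-/-). The wild-type arrays themselves lay between -0.06 and 0.06, so both knockouts were above them.

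Of 11 core clock genes 0 passed 1.5-fold (median -0.13), and of 5 clock output genes the factor Dbp was 1.69-fold lower (median -0.16). Dbp read 146 in 4B(-/-) and 247 in 4D(-/-), while C57 stood at 2475. Among 17 heat shock chaperones the mitochondrial Hspe1 was 1.65-fold higher and the inducible Hspa1b 1.58-fold lower (median -0.10). Of 14 glucocorticoid-responsive genes the zinc-finger factor Zbtb16 was 1.81-fold higher, at 1118 in 4B(-/-), 619 in 4D(-/-) and 225 to 592 in the wild-type arrays, and the EGF receptor inhibitor Errfi1 1.55-fold lower (median -0.14). Zbtb16 was highest in 4B(-/-) and exceeded the wild-type range in both knockouts.

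Of 18 antioxidant genes 1 was higher and 2 lower, with a median of 0.13 and 14 members above 0. The glutathione transferase Gsta4 was 1.59-fold higher, at 2476 in 4B(-/-) and 1555 in 4D(-/-). Catalase (Cat) read 1874 in 4B(-/-) and 3757 in 4D(-/-), and 2782 to 4475 in the wild-type arrays. Its other probe set over the floor differed by -0.24 on the log2 scale, inside 1.5-fold. The lowest of the list, Nnt, is described with the neighbours of Pde4d. Of 14 fatty acid synthesis genes 2 were higher, the lipogenic regulator Thrsp at 1509 in 4B(-/-) and 757 in 4D(-/-) and the triglyceride enzyme Dgat2 at 466 in 4B(-/-) and 265 in 4D(-/-), with a median of 0.04. Fat tissue also expresses both, and their part in the fat pattern that follows was not tested.

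Genes of tissues beside the lung accounted for many of the largest differences. Of 9 fat genes over the floor 7 were at least 1.5-fold higher in 4B(-/-) and 0 lower, against 2.99% and 2.75% of all genes. The list's median was 1.44. The fat hormone Adipoq read 1689 in 4B(-/-) and 468 in 4D(-/-), then 1952 in 4B(+/+), 2065 in 4D(+/+) and 615 in C57. Resistin (Retn) read 931 in 4B(-/-) and 244 in 4D(-/-), then 803 in 4B(+/+), 877 in 4D(+/+) and 236 in C57. The arrays fell into the same 2 sets for both genes, with 4D(-/-) beside C57 at the low end and 4B(-/-) beside the lines without a deletion.

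The fat gene Adig was 3.68-fold higher, the gluconeogenic and glyceroneogenic enzyme Pck1 2.81-fold and Cidea of brown fat 2.81-fold. The summed intensity of the fat list was 19827 in 4B(-/-) and 11057 in 4D(-/-), and 12593 to 28166 in the wild-type arrays, and 2 of its 11 measured genes were under the floor, Lep among them. Of 14 cardiac muscle genes 7 were higher and 0 lower by 1.5-fold, against 2.99% and 2.75% of all genes. The list's median was 0.64. The ventricular light chain Myl2 read 67.7 in 4B(-/-), 18.3 in 4D(-/-) and 20.2 to 53.0 in the wild-type arrays. Only the 4B(-/-) array was over the floor for Myl2. The calcium pump regulator Sln read 1873 in 4B(-/-) and 965 in 4D(-/-), and Csrp3 1159.8 in 4B(-/-) and 622 in 4D(-/-). The light chain Myl3 was 1.90-fold higher. Heart muscle extends along the pulmonary veins into mouse lung. The summed intensity of this list was 25685 in 4B(-/-) and 19478 in 4D(-/-). The wild-type arrays held 16974 to 22052, and 4B(-/-) lay above that range. In this list 0 genes were under the floor in both knockouts.

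Skeletal muscle genes went the other way, with 12 of 16 lower in 4B(-/-) and 1 higher, against 2.75% and 2.99% of all genes. The list's median was -0.87. The fast myosin Myh4 read 177 in 4B(-/-) and 1562 in 4D(-/-), then 1204 in 4B(+/+), 3920.3 in 4D(+/+) and 612 in C57. The calcium pump Atp2a1 was 2.77-fold lower, the fast myosin Myh1 2.68-fold and the calcium buffer Pvalb 2.57-fold. The 1 higher gene was the myosin Myh2, named after its value was seen, at 197 in 4B(-/-) and 93.2 in 4D(-/-). The summed intensity of the list was 6116 in 4B(-/-) and 12623 in 4D(-/-), and 6422 to 51467 in the wild-type arrays, with 2 genes under the floor. Wild-type arrays alone thus spanned far more than the knockouts differed.

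Of 9 genes of gland and mucosal secretion 5 were lower and 0 higher by 1.5-fold, against 2.75% and 2.99% of all genes. The list's median was -2.12. The gastric lipase Lipf read 234 in 4B(-/-) and 5056 in 4D(-/-), then 9517 in 4B(+/+), 13730.0 in 4D(+/+) and 5390.0 in C57. The mucosal scavenger protein Dmbt1 read 78.4 in 4B(-/-) and 1544 in 4D(-/-), then 1890.4 in 4B(+/+), 2967 in 4D(+/+) and 1172 in C57. For both, 4B(-/-) lay far below the other 4 arrays, and 4D(-/-) inside the wild-type range or near it.

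Wfdc18 was 16.0-fold lower, Dcpp3, a protein of salivary glands, 9.58-fold and the trefoil peptide Tff2 4.34-fold. Outside the lists, 2310057J18Rik was 11.1-fold lower, the secretory protein Crisp3 10.6-fold and the zymogen granule glycoprotein Gp2 3.60-fold. The list's other 4 genes over the floor, Agr2, Reg3g, Pigr and Ltf, lay within 1.5-fold at 0.52, 0.46, 0.40 and 0.05 on the log2 scale. Summed over the list, the intensity was 11319 in 4B(-/-) and 24118 in 4D(-/-), and 17448 to 50089 in the wild-type arrays, and 5 of 14 measured genes were under the floor.

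Of the thyroid, parathyroid and neuroendocrine list, all 4 genes over the floor were lower by 1.5-fold, against 2.75% of all genes. The list's median was -2.12. Parathyroid hormone (Pth) read 432 in 4B(-/-), 2155 in 4D(-/-) and 1799 to 7455 in the wild-type arrays. Thyroglobulin (Tg) read 448 in 4B(-/-), 1687 in 4D(-/-) and 3065 to 7717 in the wild-type arrays. Chromogranin A (Chga) was 5.76-fold lower and the anion exchanger Slc26a7 1.98-fold. The list summed to 991 in 4B(-/-) and 4344 in 4D(-/-), and to 5329 to 17017 in the wild-type arrays, and 7 of 11 measured genes, the thyrotropin receptor Tshr among them, were under the floor. Both knockout arrays lay below all wild-type arrays in that sum, 4B(-/-) by more.

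Squamous and basal epithelium had 1 of 5 genes higher, the keratin Krt15 (1.57-fold), and 1 lower, the keratin Krt4 (3.04-fold), with a median of -0.03. Cartilage and tendon had 1 of 14 higher, the growth plate collagen Col10a1 (1.54-fold), and 1 lower, Col11a1 (1.79-fold), with a median of 0.05. These tissues lie around the trachea, gullet and chest wall. What part differing amounts of such tissue in the frozen powder had in the differences above was not tested. In these 7 lists the directions differed between tissues, since fat and cardiac muscle were higher in 4B(-/-) while skeletal muscle, gland and endocrine genes were lower.

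**Figure D4:**
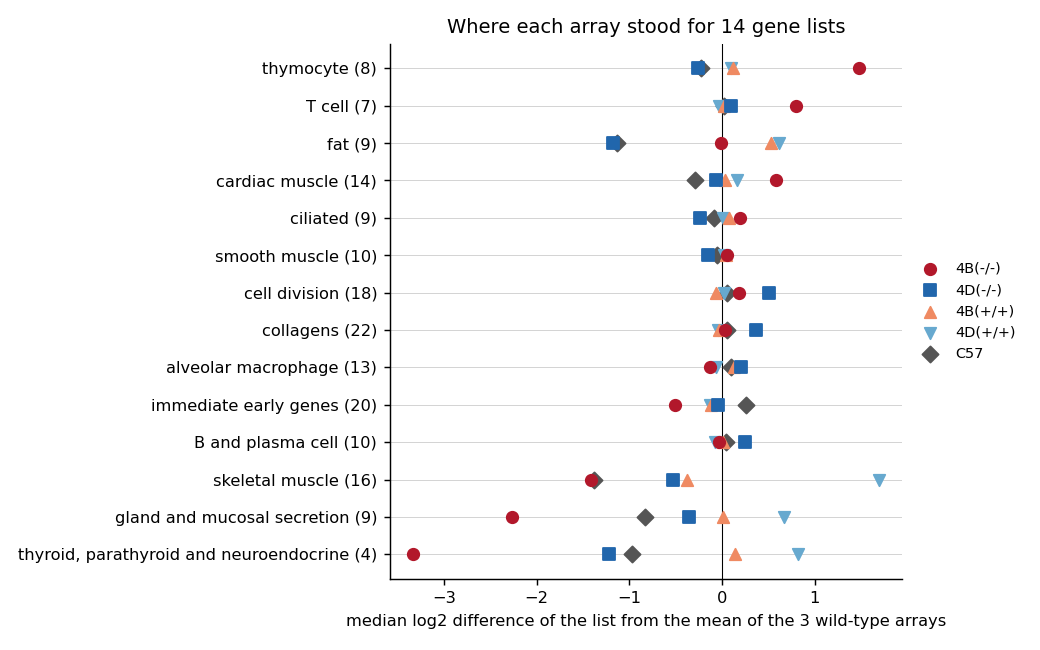
Median log2 difference of 14 gene lists, picked after their values were seen, from the mean of the 3 wild-type arrays, for each of the 5 arrays. Red circles are 4B(-/-) and blue squares 4D(-/-). The thymocyte list stands at 1.48 in 4B(-/-) and -0.26 in 4D(-/-), and the fat list at -0.01 in 4B(-/-) and -1.18 in 4D(-/-), where C57 stands at -1.14.

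The lines without their deletions gave a comparison that shares no array with the knockouts. Between 4B(+/+) and 4D(+/+), 11 genes were at least 2-fold higher and 102 lower. Of the 54 genes lower in 4B(-/-), 17 were also lower in 4B(+/+) than in 4D(+/+), which is 31.5% of the knockout genes and 16.7% of the wild-type ones. These 17 were mostly muscle and gland genes, such as Myh4, Myh1, Pvalb, Actn3, Ttn, Wfdc18, Dcpp3, Crisp3 and Tff2. Of the 44 genes higher in 4B(-/-), Cxcl5 alone was shared, 2.27% of the knockout genes and 9.09% of the wild-type ones. No more than 11 could have been shared in that direction, against 102 in the other, so the directions are not compared. The fat gene Cox8b and the myosin Myh2 went opposite ways in the 2 comparisons. Rag1, Dntt and Ccl25 were not among the shared genes, and Glycam1, Cyp1a1 and Lipf were not either. With so few genes past 2-fold between these lines, absence from the shared ones is no result about a gene.

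Mice made with a targeted gene and then backcrossed can keep parental DNA around the target, so the neighbours of each deleted gene were read along the chromosome. The gene order came from RefSeq for GRCm38.p6. The arrays name no build, so positions are given as genes over the floor counted from the target. Around Pde4b on chromosome 4, 15 of 200 neighbours (7.5%) passed 1.5-fold, 8 higher and 7 lower, and 3 (1.5%) passed 2-fold. Over all genes the shares were 5.75% and 0.868%. Efcab7, 7 genes before Pde4b, read 105 in 4B(-/-), 36.7 in 4D(-/-) and 39.8 to 58.4 in the wild-type arrays. Hyi, a predicted hydroxypyruvate isomerase 84 genes after Pde4b, read 215 in 4B(-/-), 96.8 in 4D(-/-) and 101 to 111 in the wild-type arrays. In these 2 neighbours 4B(-/-) alone stood apart. The acute-phase protein Orm1 was 2.34-fold higher, the complex III subunit Uqcrh 1.80-fold and Tctex1d4 1.76-fold, each without either knockout standing apart.

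Around Pde4d on chromosome 13, 16 of 129 neighbours (12.4%) passed 1.5-fold, 5 higher and 11 lower, and 3 (2.33%) passed 2-fold. The table held 100 neighbours before Pde4d and 29 from there to the end of the chromosome. Nnt, 24 genes after Pde4d, makes NADPH in mitochondria, and C57BL/6J mice are known to carry a deletion inside it. It read 345 in 4B(-/-) and 1212 in 4D(-/-), then 442 in 4B(+/+), 569 in 4D(+/+) and 509 in C57. A second Nnt probe set read 282 in 4B(-/-) and 592 in 4D(-/-), and 221 to 330 in the wild-type arrays. With both probe sets 4D(-/-) was the highest of the 5 arrays, and 4B(-/-) lay near or among the wild-type values.

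Tmem267, 27 genes after Pde4d, read 122 in 4B(-/-), 29.6 in 4D(-/-) and 79.4 to 124 in the wild-type arrays. The transcript 4833420G17Rik, 26 genes after it, read 487 in 4B(-/-), 251 in 4D(-/-) and 464 to 510.1 in the wild-type arrays. Both were lowest in 4D(-/-). The fatty acid elongase Elovl7, the gene just before Pde4d, read 151 in 4B(-/-), 322 in 4D(-/-) and 188 to 213 in the wild-type arrays, and its 4 probe sets all differed by more than 1.5-fold the same way. The scaffold gene Erbin was 1.82-fold lower in 4B(-/-). In all, 4D(-/-) alone stood apart in 5 neighbours of Pde4d, Nnt, Tmem267, 4833420G17Rik, Elovl7 and the sulfatase Arsk, and 4B(-/-) alone in 1, Fcho2. Arsk and Fcho2 were named after their values were seen. Whether 129/Ola DNA remains at these places was not tested.

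**Figure D5:**
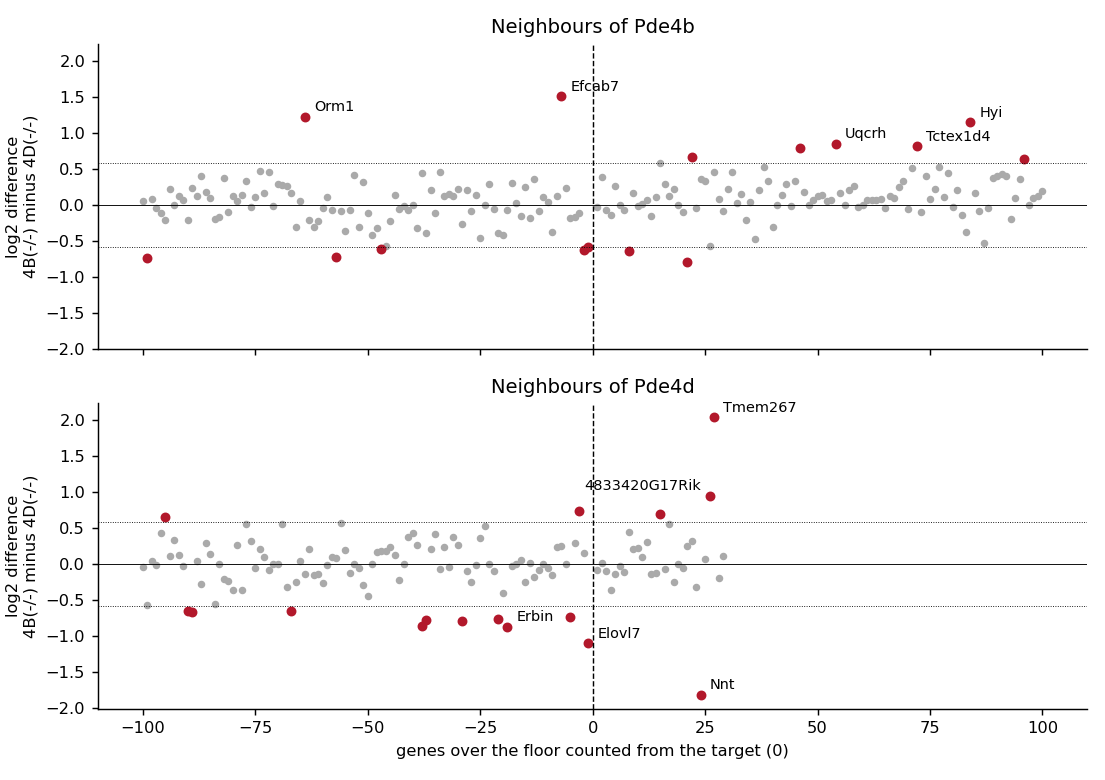
Log2 difference, 4B(-/-) minus 4D(-/-), of neighbouring genes over the floor beside Pde4b (top) and Pde4d (bottom), placed by the number of genes from the target at 0. Red points are past 1.5-fold (dotted lines), 15 of 200 around Pde4b and 16 of 129 around Pde4d. Nnt, at -1.81, and Tmem267, at 2.04, lie farthest out near the end of chromosome 13.

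Hprt, a purine salvage enzyme of the X chromosome, was not near either target. It read 5841 in 4B(-/-) and 1844 in 4D(-/-), and 1409.6 to 1632 in the wild-type arrays, a 3.17-fold difference with 4B(-/-) alone apart. Among the genes past 2-fold, 20 had more than 1 probe set over the floor. In 16 of them every probe set went the same way, and in 9 every probe set passed 1.5-fold, namely Dntt, Ccr9, Cd8a, Nnt, Elovl7, Myh1, Krt4, Socs3 and Ttn. The endosomal adaptor subunit Lamtor5 alone had probe sets past 1.5-fold in both directions, at -0.75 and 0.63 on the log2 scale, and no direction is given for it.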

How the data were processed

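Lung RNA, 1 pool per strain, was hybridised to 5 arrays. The authors deposited linear intensities, 1 for each probe set in each array. RMA, which adjusts background, equalises the arrays and summarises probes, is named per the submitters' processing notes, while the sources used here give no version, settings or build. RMA values tie often, and 13.0% of the 45101 probe sets were identical in both knockouts.

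Intensities were converted to log2 with Python 3.11.15, numpy 2.4.6 and pandas 2.3.3, and figures drawn with matplotlib 3.10.9. The platform annotation gave 34958 probe sets 1 gene symbol, 932 several and 9211 none, and only the first kind was used. Each gene was read on whichever of its probe sets was brightest on average across the 5 arrays, and compared where the higher knockout array reached log2 6. Folds are 4B(-/-) over 4D(-/-). RefSeq's GRCm38.p6 table placed 18146 of 18194 genes.

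Named were the 15 largest differences each way, up to 4 members per list past 1.5-fold, the PDE4 genes, 5 neighbours per target among 100 genes a side, and genes with disagreeing probe sets. Members and lists were chosen with earlier results of these data known. Alternatives were folds of 1.5 and 3, floors of log2 5 and 7, other readings of the floor, the median over probe sets in place of the brightest, cyclic loess (limma 3.58.1, R 4.3.3) and centring. Counting was tested on simulated data.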

Additional observations from a re-analysis of the deposited data

Results flagged for a closer look

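In 10 of the 98 genes past 2-fold between the knockouts, each knockout lay at least 1.5-fold from its own wild-type line, in opposite directions. The 98, or 0.868% of genes compared, were already chosen for differing between the knockouts, so this count is a description. Each value is the log2 difference of 4B(-/-) from 4B(+/+) minus that of 4D(-/-) from 4D(+/+). With 1 array a group, none of these differences was tested. Rag1 stood at 4.60, 2.62-fold higher in the PDE4B line and 9.25-fold lower in the PDE4D line, Ccl25 at 3.09 and Prss16 at 1.76. Rag1, Ccl25 and Prss16 were under 64 in 4D(-/-) and also in C57, where Rag1 read 6.57. The muscle genes Myl2 and Myh2 stood at 3.28 and 2.56, and Efcab10 at 1.71. Myl2 was over 64 in 4B(-/-) alone of the 5 arrays.

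In the other direction, Glycam1 stood at -6.13, 5.33-fold lower in the PDE4B line and 13.1-fold higher in the PDE4D line. Abtb2 stood at -1.71. The B-cell coactivator Pou2af1 stood at -1.66 and the immunoglobulin segment Ighv14-2 at -1.35. Glycam1, Pou2af1 and Ighv14-2 were under 64 in 4B(-/-), and Glycam1 read 588 in C57.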

How the results depend on the processing

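The counts of 44 higher and 54 lower genes were redone under 9 alternatives. They were 338 higher and 311 lower at 1.5-fold, and 13 higher and 19 lower at 3-fold. A floor of log2 7 left 28 higher and 47 lower genes, and requiring both knockout arrays over the floor left 21 higher and 43 lower, since 23 of the 44 were under it in 4D(-/-). Under the other settings 40 to 50 genes were higher and 47 to 67 lower. The 7 list medians past 1.5-fold kept their direction under the median of probe sets, cyclic loess and centring, and 6 stayed past 1.5-fold under the first. Of 96 named genes past 1.5-fold, 94 kept their direction under the median of probe sets and 81 stayed past 1.5-fold. The exceptions were Calcrl, at 0.0197, and Ighg3, at 0.0531, which turned. Under cyclic loess 95 stayed past 1.5-fold and under centring 93, all with their direction.

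No paired analysis was possible because each group had 1 array. For the same reason no replicate was left out. Signal limits the values under 64, and the RNA pools hide the spread between animals.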
